A study of Mus musculus with 2 samples.

Results

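The 10 genes described here encode the main structural proteins of the basement membrane: *Col4a1*, *Col4a2*, *Col15a1*, *Col18a1*, *Lama2*, *Lama4*, *Lamb1*, *Lamc1*, *Nid1* and *Hspg2*. They were chosen by name, but with earlier results of these data known. They are 10 of the 32285 genes in the count tables, and every member was present and tested. Cells had been sorted for tdTomato from mice carrying the alleles Clec3b.creERT2 and Ai14.R26.tdTomato, in which tamoxifen, given before surgery, permanently labels cells that express *Clec3b*, the gene for tetranectin, from whose locus the Cre is driven. Tissue of 3 littermate mice was collected 3 weeks after stabilized femoral fracture and pooled into 1 callus library and 1 intact library of femoral diaphysis with its surrounding muscle. Both libraries share the genotype and the tamoxifen, and the fracture and the tissue taken set them apart.

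A basement membrane is a thin sheet of matrix that underlies endothelium and wraps muscle fibres, nerves and fat cells. Laminins, each an assembly of an alpha, a beta and a gamma chain, form a first network on the cell surface, and type IV collagen, built from *Col4a1* and *Col4a2* chains in most tissues, forms a second. Nidogen and the heparan sulphate proteoglycan perlecan, encoded by *Hspg2*, connect them, while collagens XV and XVIII lie at the outer face and are cleaved to fragments that act on vessels. In muscle, interstitial fibroblasts and endothelial cells are both known sources of these proteins.

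The intact library held 1872 barcodes and 12112002 unique molecular identifiers (UMIs, counts of single captured transcripts), and the callus library 3987 barcodes and 36714322 UMIs. Of these, 1207 and 3295 cells showed 500 or more genes with no more than 10% mitochondrial UMIs, and 1 barcode was shared between the libraries. Haematopoietic cells made up 60.9% of the kept intact and 74.1% of the kept callus cells despite the sort. Although the mice were labelled male, *Xist* was found in 97.5% of 201 intact and 98.6% of 211 callus mesenchymal cells with at least 5000 UMIs, and 8 Y-linked genes together had 1 and 0 UMIs. Cells were assigned to types by marker genes that include no member. These gates are called resting Pi16 (fibroblasts with *Pi16* and *Dpp4*; 189 intact and 118 callus cells), inflammatory Pi16 (the same fibroblasts with *Ptx3*, *Has1* and *Il6*; 32 and 26), Cxcl14 (fibroblasts with *Cxcl14* and *Smoc2*; 62 and 42), Thbs4 (4 and 25), marrow stromal (*Lepr*, *Cxcl12*; 0 and 35), osteoblast (*Bglap*, *Dmp1*; 1 and 35) and endothelial (27 and 95). *Col15a1* is a marker by which the study itself divided its fibroblasts, so its place in the Cxcl14 gate is a description. The level of a gene is given as its summed UMIs in a gate, per 1000000 UMIs of that gate (CPM), with an exact Poisson 95% interval for counting error. The endothelial gate had UMIs of 8 of 8 endothelial markers and 0 *Clec3b* UMIs in both libraries. The resting Pi16 gate of each library had 1666 *Clec3b* CPM. The paper found no meaningful tdTomato expression in its endothelial and haematopoietic populations, read them as sorting artifacts and excluded them. The endothelial cells here are thus a comparison group and are not taken as labelled cells. Since capture of the 3′ end differs between genes, levels are compared between cell types and not between genes. Shares and ratios of different genes within a gate are given only to compare cell types.

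*Col4a1* and *Col4a2* lie head to head on chromosome 8 of GRCm38, *Col4a1* at 11198423 to 11312826 on the minus strand and *Col4a2* at 11312805 to 11449287 on the plus strand. Their annotated 5′ ends overlap by 22 bases, which lie inside both genes and are transcribed from opposite strands. The overlap is shown because the genes had the most alike levels of any pair of members (Pearson r = 0.99 of log2 CPM with 10 added). This was computed over 24 sums of cells that share 2 libraries and include blood cells and myofibres, which held few or no UMIs of either gene. *Lama4* and *Lamb1*, on chromosomes 10 and 12, also had an r of 0.99, so so high an r was not limited to neighbouring genes. The second stretch is the 250 bases before the RefSeq start of *Col15a1* on chromosome 4 (GRCm38.p6, plus strand, 47207762 to 47208011), the member with the widest range between fibroblast gates. Capitals mark a GC box (GGGCGG on either strand), and RefSeq windows were found for 8 of the 10 members.

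Between the *Col4a2* and *Col4a1* starts (plus strand): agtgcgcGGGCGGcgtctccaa

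Upstream of *Col15a1*: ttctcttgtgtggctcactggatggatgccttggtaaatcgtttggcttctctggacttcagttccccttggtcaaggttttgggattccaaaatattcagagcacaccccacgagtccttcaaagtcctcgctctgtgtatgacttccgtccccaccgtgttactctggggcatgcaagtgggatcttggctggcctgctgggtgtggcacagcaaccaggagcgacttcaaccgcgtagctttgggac

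The *Col15a1* stretch held no GC box, no CCAAT and no TATAAA on either strand. Over the 32851 RefSeq windows of the same 250 bases, a GC box was found in 32.7%, CCAAT in 33.8% and TATAAA in 12.4%. The upstream windows of *Col4a1* and *Col4a2* held 1 CCAAT each, and that of *Hspg2* held 5 GC boxes.

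Type IV collagen was higher in endothelial cells than in resting Pi16 fibroblasts. *Col4a1* was at 2505 CPM in the intact (interval 2141 to 2912) and 3643 CPM in the callus endothelial gate, against 321 and 383 CPM in resting Pi16 fibroblasts. *Col4a2* was at 2089.6 and 2290.1 CPM in endothelial cells and at 179 and 203 CPM in resting Pi16 fibroblasts. Both genes were thus higher in endothelial cells in each library, and the counting intervals of the gates did not overlap. By edgeR's quasi-likelihood test on the sums of 4 gates in both libraries, with Benjamini-Hochberg adjustment over 7247 genes, *Col4a1* was 2.83 ± 0.32 (SE) higher on the log2 scale (adjusted p = 1.9e-07) and *Col4a2* 3.22 ± 0.32 (adjusted p = 3.5e-08).

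The outer collagens and perlecan followed. *Col15a1* had 133 CPM in intact and 633 CPM in callus endothelial cells, and 9.21 and 69.7 CPM in resting Pi16 fibroblasts, a difference of 3.18 ± 0.58 (adjusted p = 1.3e-04, edgeR). The study had divided its fibroblasts by *Col15a1* and *Pi16*, and the resting Pi16 gate is on the side not marked by *Col15a1*. *Col18a1*, the source of endostatin, was called higher in endothelial cells (1.98 ± 0.41, adjusted p = 5.5e-04, edgeR), but this rested on the callus library: its levels were 207 against 39.1 CPM there and 14.8 against 24.5 CPM in the intact library, where endothelial cells held 1 UMI. *Hspg2* was at 711 and 738 CPM in endothelial cells and 301 and 335 CPM in resting Pi16 fibroblasts, 0.90 ± 0.29 higher (adjusted p = 0.018, edgeR), a call lost with no library term (adjusted p = 0.065). With DESeq2 the calls for *Col15a1* and *Col18a1* were lost (adjusted p = 0.11 and 0.23).

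*Nid1*, *Lama2*, *Lamb1* and *Lamc1* were lower in endothelial cells. *Nid1*, which links laminin to type IV collagen, was at 1965 and 1871 CPM in resting Pi16 fibroblasts and at 133 and 309 CPM in endothelial cells, a log2 difference of -3.28 ± 0.32 (adjusted p = 2.8e-08, edgeR). *Lama2*, the alpha chain of muscle laminin, had no UMI among the 521174 of the endothelial gate and 818 among the 2250979 of the resting Pi16 gate, so it was at least 63.1-fold lower in endothelial cells, taking 3 counts over both libraries as the floor. *Lamb1*, a common beta chain, was at 148 and 236 CPM in endothelial cells and 358 and 372 CPM in resting Pi16 fibroblasts (-1.10 ± 0.30, adjusted p = 0.0056, edgeR), a call lost with Leiden clusters in place of gates (adjusted p = 0.088). *Lamc1*, the common gamma chain, was at 178 and 251 CPM against 559 and 568 CPM (-1.59 ± 0.29, adjusted p = 1.2e-04, edgeR). *Lama4*, the alpha chain of vessel laminin, stood at 207 and 344 CPM in endothelial cells and 273 and 395 CPM in resting Pi16 fibroblasts and did not pass the test (adjusted p = 0.21, edgeR).

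In all, 5 members were higher and 4 lower in endothelial cells, where 15.1% of all tested genes were higher and 20.2% were lower. The 5 include *Col15a1*, for which the reference gate is not independent of the study's own division of fibroblasts. The median log2 difference was 0.21 over the members and -0.07 over all tested genes. The fit put endothelial differences 0.34 lower on the log2 scale than the plain CPM do. Mesenchymal markers summed to 119 and 150 CPM in the endothelial gates (5 and 8 of 9 markers had a UMI), against 22865 and 37851 CPM in the resting Pi16 gates. Endothelial markers summed to 11.5 and 55.9 CPM in the resting Pi16 gates (2 and 8 of 8). Each cell type comes from 2 pooled libraries, so that p-values measure the spread between these sums and not between mice.

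**Figure D1:**
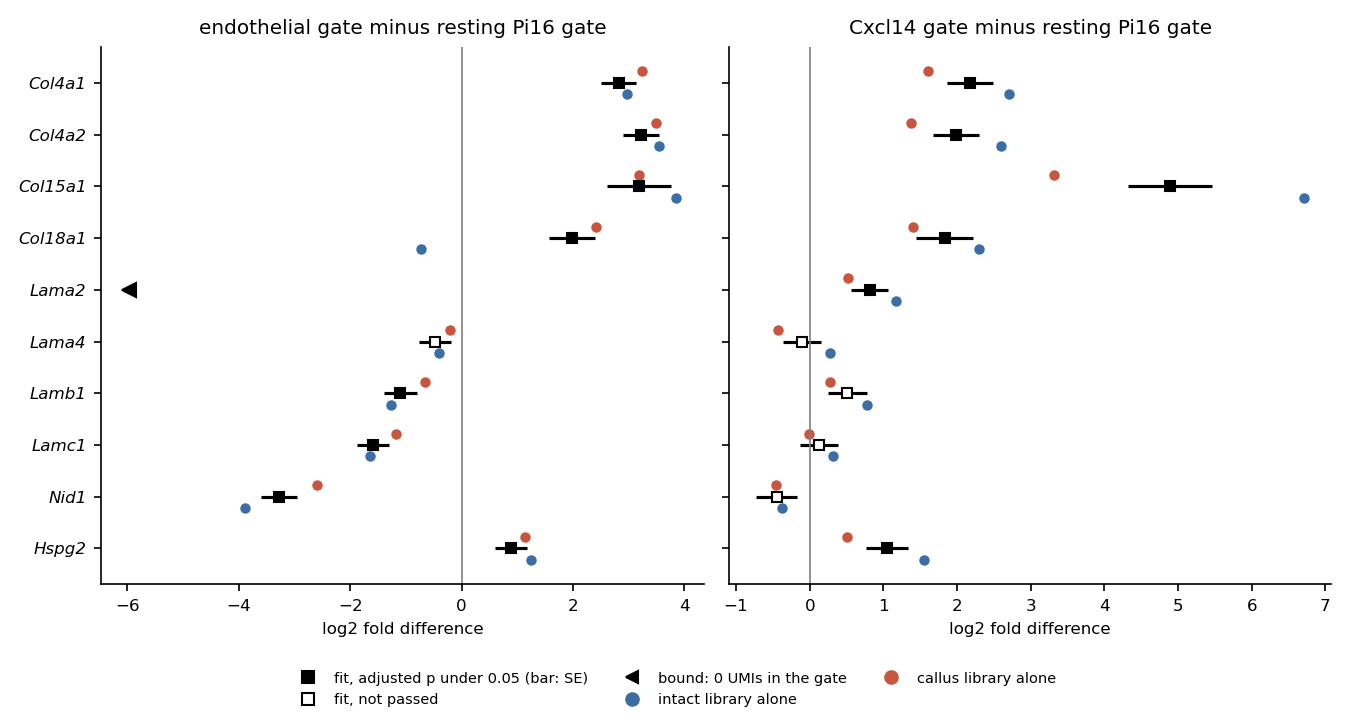
Log2 fold difference of each member in the endothelial gate (left) and the Cxcl14 gate (right) from the resting Pi16 gate. Squares are the edgeR fit with its SE (filled where the adjusted p was under 0.05), blue and red points are the plain CPM ratios of the intact and the callus library, and the triangle is the bound for *Lama2*, which had 0 UMIs in endothelial cells. Type IV collagen lies to the right in both panels, *Nid1* lies at -3.28 in endothelial cells and at -0.45, with no call, in the Cxcl14 gate, and the intact point of *Col18a1* lies on the other side of 0 from its fit.

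Among fibroblasts, the Cxcl14 gate held most type IV and type XV collagen. *Col15a1* was at 963 CPM (432 UMIs) in intact and 695 CPM in callus Cxcl14 cells. The fitted difference from the resting Pi16 gate was 4.89 ± 0.58. As a marker by which the study divided these fibroblasts, *Col15a1* is described here without a p-value. Its ratio to the resting Pi16 gate differed between libraries, with 6.71 on the log2 scale in intact and 3.32 in callus. *Col4a1* was at 2082 and 1164 CPM (2.18 ± 0.31, adjusted p = 3.4e-05) and *Col4a2* at 1081 and 524 CPM (1.99 ± 0.31, adjusted p = 1.1e-04). *Col18a1*, at 120.4 and 103 CPM, was also higher (1.83 ± 0.39, adjusted p = 0.0024).

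*Hspg2* (885 and 474 CPM) and *Lama2* (823 and 518 CPM) were higher by 1.05 ± 0.28 and 0.81 ± 0.25, the second close to the threshold (adjusted p = 0.018 and 0.046, edgeR). *Lama4*, *Lamb1*, *Lamc1* and *Nid1* did not pass the test, with differences of -0.11, 0.51, 0.13 and -0.45. Thus 6 members were higher and 0 lower in the Cxcl14 gate (10 of 10 tested, 6 at an unadjusted p under 0.05), where 4.36% of all tested genes were higher and 4.57% were lower. The 6 include *Col15a1*, the study's own marker for this division, whose call is no independent result. The median difference was 0.93 over the members and 0.00 over all tested genes. By DESeq2 3 members were called, *Col4a1*, *Col4a2* and *Col15a1*. With Leiden clusters in place of gates 2 were called, *Col15a1* and *Col18a1*, and the calls for *Col4a1* (1.56, adjusted p = 0.051, edgeR) and *Col4a2* (1.30, adjusted p = 0.13, edgeR) were lost. The *Col4a1* intervals of the intact Cxcl14 (1951 to 2220 CPM) and intact endothelial gates overlapped.

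In inflammatory Pi16 fibroblasts no member passed the test against resting ones. Their *Nid1* stood at 1673 and 1932 CPM, their *Lamc1* at 533 and 508 CPM and their *Col4a1* at 251 and 248 CPM. By edgeR 0 of the 10 members passed the test (1 had an unadjusted p under 0.05, and DESeq2 called 0), where 0.828% of all tested genes were higher and 0.0552% lower. At so low a background a count of 0 does not show that the members were alike. *Col4a2* was at 135 and 74.3 CPM, against 179 and 203 CPM in the resting gate (-0.81 ± 0.37, adjusted p = 0.77, edgeR).

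**Figure D2:**
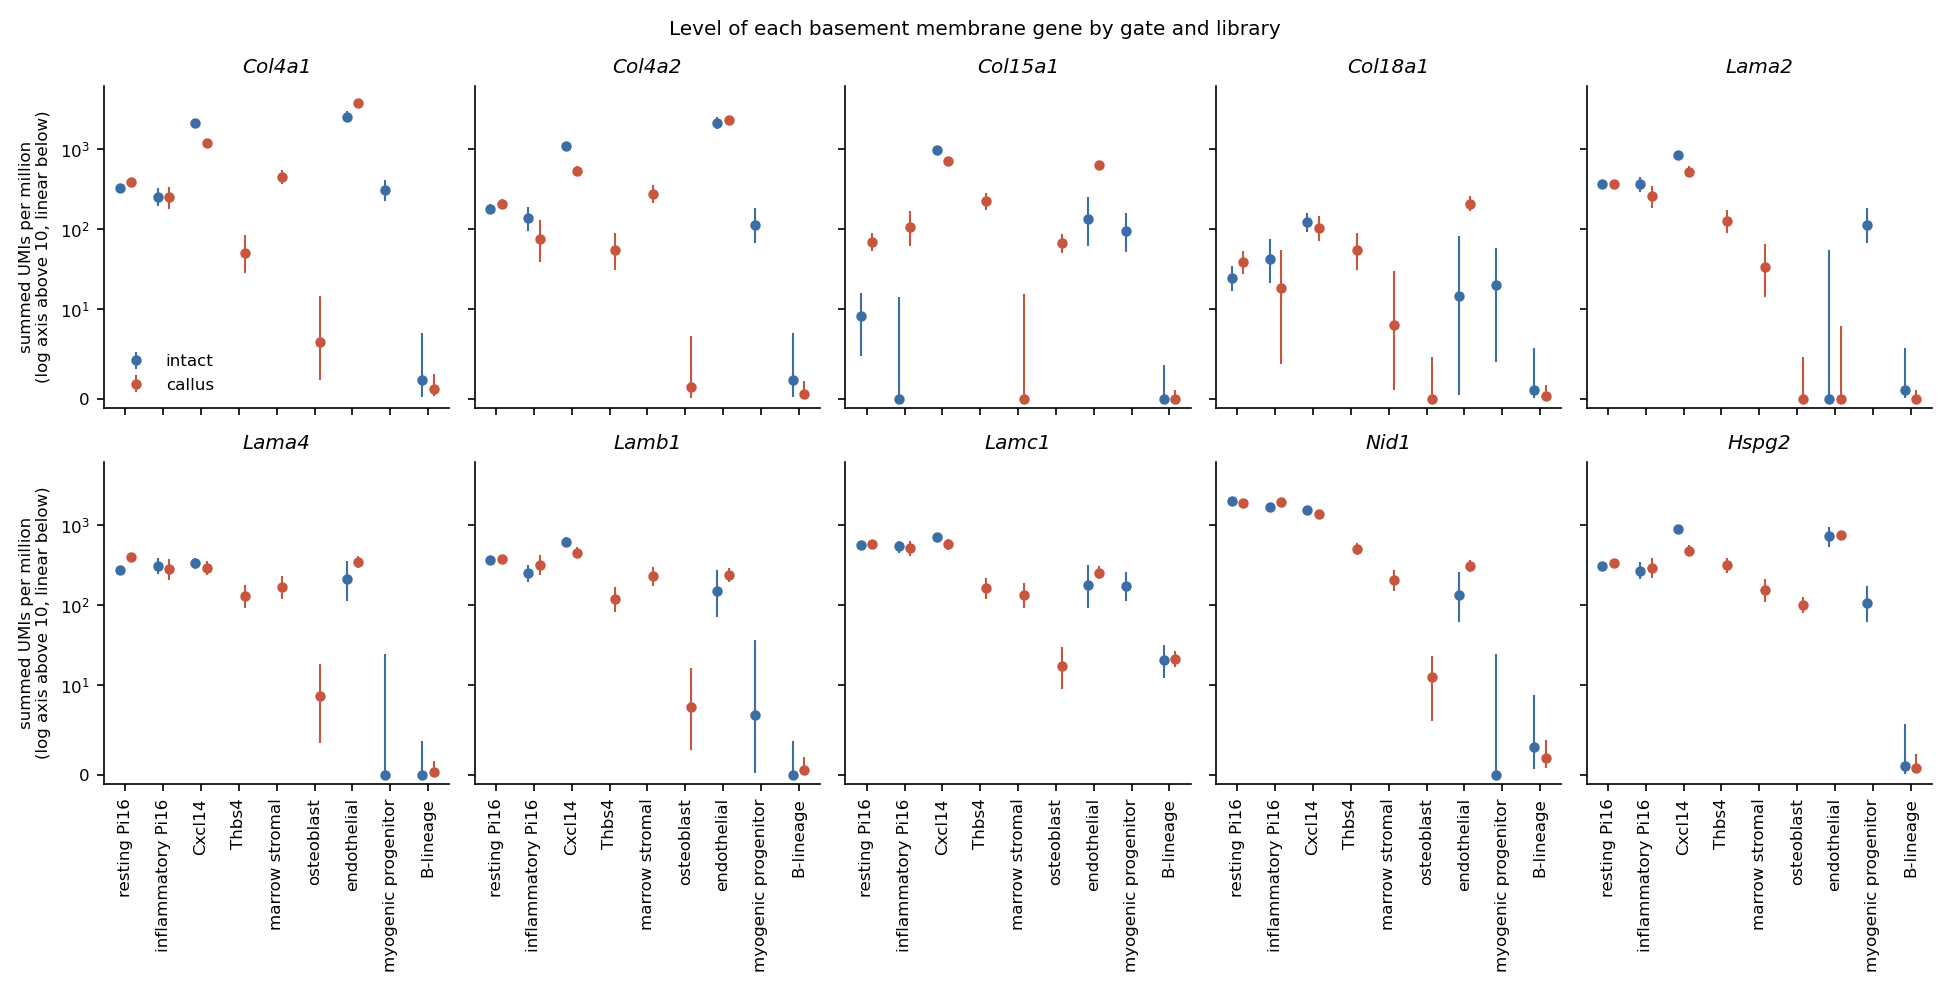
CPM of each member by gate, with blue for the intact and red for the callus library and bars for the exact Poisson 95% interval; the vertical axis is logarithmic above 10 and linear below, and gates with under 10 cells are left out. *Col4a1* reached 3643 CPM in callus endothelial cells and 2082 CPM in intact Cxcl14 cells, *Nid1* was between 1358 and 1965 CPM in the Pi16 and Cxcl14 gates, and B-lineage cells stayed under 5 CPM for every member but *Lamc1*.

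By gate, the remaining mesenchymal types were found almost entirely in the callus. Cells of the callus Thbs4 gate had less *Col4a1* (50.8 CPM) and *Nid1* (498 CPM) than the other fibroblast gates but 220.3 CPM *Col15a1* and 312 CPM *Hspg2*. Both statements depend on the gate. The Leiden cluster led by *Thbs4*, described below, held 26 intact and 77 callus cells. Of these, 16 intact and 28 callus cells were in the Cxcl14 gate, with *Col4a1* at 998 and 517 CPM. Marrow stromal cells had 444 CPM *Col4a1* and 274 CPM *Col4a2*, no *Col15a1* among 240835 UMIs (a limit of 12.5 CPM), 33.2 CPM *Lama2* and 166 CPM *Lama4*. Osteoblasts had at most 17.6 CPM of 8 members, with 6.30 CPM *Col4a1* and 12.6 CPM *Nid1*, and held 101 CPM *Hspg2* and 66.8 CPM *Col15a1*. These gates had under 10 cells in the intact library and entered no test.

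Cells outside the stroma were also described, and of these only B-lineage cells served as a background. Myofibres had at most 2 UMIs of any member in either library. Intact myogenic progenitors had 306 CPM *Col4a1* and 113 CPM *Lama2* but no UMI of *Nid1* or *Lama4* (a limit of 19.99 CPM for each). B-lineage cells, which should lack the genes, were at 0 to 3.1 CPM except for *Lamc1*, at 20.4 and 21.4 CPM.

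The share of cells with a UMI was also compared. With each cell thinned to 2000 UMIs, *Col4a1* was detected in 100% of 16 intact and 93.9% of 82 callus endothelial cells, in 86.7% and 70.7% of Cxcl14 cells and in 37.6% and 39.6% of resting Pi16 cells. *Nid1* was detected in 94.1% and 92.8% of resting Pi16 cells. *Col15a1* was detected in 65.0% and 48.8% of Cxcl14 cells, in 12.5% and 50% of endothelial cells and in 1.18% and 9.01% of resting Pi16 cells. In B-lineage cells *Col4a1* was detected in 0% and 0.39% and *Nid1* in 0.43% and 0.59% of cells. The median cell held 7 of the 10 members in the intact and 5 in the callus Cxcl14 gate, 4 and 5 in the endothelial gate, 4 and 4 in the resting Pi16 gate, 2 among marrow stromal cells and 0 among osteoblasts. The makeup of the members' UMIs differed in turn. *Nid1* was 45.1% and 40.7% of all member UMIs in the resting Pi16 gate and 2.18% and 3.57% in the endothelial gate, while *Col4a1* was 7.36% and 8.34% in the first and 40.9% and 42.1% in the second. Of 120 combinations of member, gate and library, 94 had a share whose interval lay above that of B-lineage cells. The same count was not made over all genes, so it does not set the members apart from other genes.

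The alpha chain, which gives a laminin its tissue type, differed between cell types. *Lama2* made up 57.1% of laminin alpha UMIs in intact resting Pi16 fibroblasts (exact Clopper-Pearson interval 53.7 to 60.5) and 71.2% in intact Cxcl14 fibroblasts (67.1 to 75.1), intervals that do not overlap. In callus the shares were 47.8% (44.1 to 51.5) and 64.0% (58.0 to 69.7). The 2 resting Pi16 intervals do not overlap either, while those of the Cxcl14 gate do. Nearly all of the rest was *Lama4*. In endothelial cells *Lama2* was 0 of 25 and 0 of 205 alpha UMIs, with exact intervals that reach up to 13.7% and 1.78%. There *Lama4* made up 56.0% and 76.1% and *Lama5*, the other alpha chain of vessels, 40.0% and 18.0%. Marrow stromal cells had 76.9% *Lama4* (63.2 to 87.5) and 15.4% *Lama2*.

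**Figure D3:**
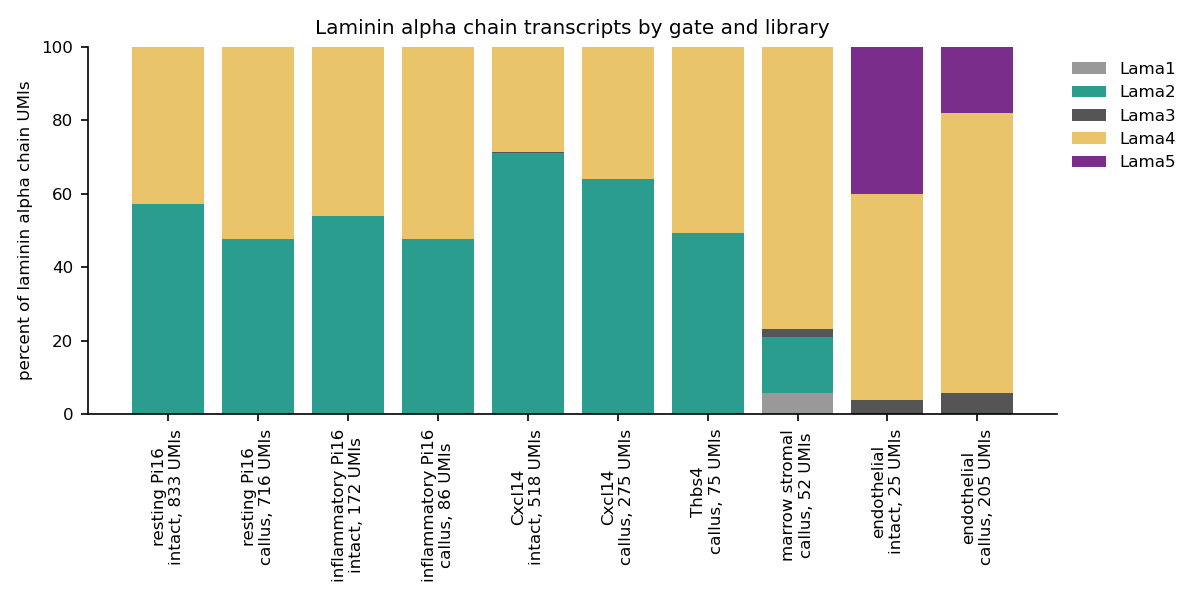
Share of each laminin alpha chain among all laminin alpha UMIs (vertical axis, percent) in the fibroblast, marrow stromal and endothelial gates with at least 10 cells in a library, with the number of alpha UMIs under each bar. *Lama2* is the largest share in the Cxcl14 gate (71.2% intact, 64.0% callus) and is missing from both endothelial bars, where *Lama5* takes 40.0% and 18.0%.

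The ratio of *Col4a1* to *Col4a2* UMIs was 1.79 and 1.89 in resting Pi16 and 1.93 and 2.22 in Cxcl14 fibroblasts. In endothelial cells the ratio was 1.20 (exact interval 0.95 to 1.51) in the intact and 1.59 (1.47 to 1.72) in the callus library. The intact interval lies below those of the intact resting Pi16 (1.52 to 2.11) and Cxcl14 gates (1.72 to 2.15) but overlaps that of the intact inflammatory Pi16 gate (1.21 to 2.89). The callus interval overlaps those of callus resting Pi16 (1.58 to 2.26) and inflammatory Pi16 cells (1.71 to 6.98). It lies below that of callus Cxcl14 cells (1.85 to 2.66).

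Between intact and callus there is 1 library each and so no test, and the ratios below carry counting intervals only. In resting Pi16 fibroblasts 1 member was at least 2-fold higher in callus, where 3.63% of the 8701 genes with at least 20 UMIs were higher and 2.62% were lower by that much. This was *Col15a1*, with 12 UMIs in 6 of 189 intact cells and 66 UMIs in 21 of 118 callus cells, a ratio of 7.57 (interval 4.06 to 15.4). The other 9 members had ratios from 0.95 for *Nid1* to 1.59 for *Col18a1*, and *Lama4* was at 1.45 (1.25 to 1.68). Outside the clusters led by *Cxcl14* and by *Thbs4*, described below, resting Pi16 cells still had 4.85 CPM *Col15a1* in intact and 45.1 CPM in callus, the latter from 9 of 98 cells. In the resting Pi16 gate as a whole, endothelial markers summed to 11.5 CPM in intact and 55.9 CPM in callus and capillary markers to 26.1 CPM (5 of 8) and 190 CPM (8 of 8), and their part in the *Col15a1* ratio was not tested.

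Endothelial cells had 3 members at least 2-fold higher and 0 at least 2-fold lower in callus, of 9 with at least 20 UMIs, where 13.3% of 4656 genes were higher and 5.99% were lower. *Col15a1* had 9 UMIs in 2 of 27 intact cells and 287 UMIs in 60 of 95 callus cells, a ratio of 4.74 (2.46 to 10.5). *Col18a1* had 1 and 94 UMIs, a ratio of 14.0 with an interval of 2.45 to 558. *Nid1* had 9 and 140 UMIs and a ratio of 2.31 (1.18 to 5.17), and *Col4a1* a ratio of 1.45 (1.24 to 1.71). The intact endothelial gate held only 67477 UMIs. The callus gate held 453697 UMIs. The makeup of the gate also differed: capillary markers summed to 38873 CPM in intact and 21556 CPM in callus (8 of 8 with a UMI in both), and sinusoidal markers to 133 CPM (2 of 4) and 337 CPM (4 of 4). The part of this in the ratios was not tested.

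Inflammatory Pi16 fibroblasts had 0 members at least 2-fold higher and 0 at least 2-fold lower in callus, of 8 that reached 20 UMIs, where 6.26% of genes were higher and 7.13% lower. *Col15a1*, with 17 UMIs in total, was not among these 8. It had 0 UMIs in the intact and 17 in the callus cells, 12 of them in 1 cell.

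In the Cxcl14 gate 0 members were at least 2-fold higher in callus and 1 was lower, *Col4a2* with a ratio of 0.48 (0.41 to 0.58), where 7.08% of 5650 genes were higher and 4.87% lower. *Hspg2* (0.54), *Col4a1* (0.56), *Lama2* (0.63), *Col15a1* (0.72), *Lamb1* (0.73) and *Lamc1* (0.81) also had intervals under 1. How many of all genes had such an interval was not counted, so this does not set the members apart. The median log2 ratio of callus to intact in this gate was -0.46 over the members and 0.06 over the 5650 genes. The makeup of the gate also differed between the libraries. In a clustering made without the members, Cxcl14-gated cells fell mostly into a cluster led by *Cxcl14* and *Smoc2* (42 intact and 13 callus cells) and a cluster led by *Thbs4* and *Fmod* (16 intact and 28 callus cells).

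Within the *Cxcl14*-led cluster, *Col4a1* was at 2574 CPM in intact and 2653 CPM in callus cells, a ratio of 1.03 (0.89 to 1.19), and *Col15a1* at 1284 and 1287 CPM, a ratio of 1.00 (0.82 to 1.23). *Col4a2* (0.63, 0.50 to 0.80), *Hspg2* (0.73, 0.56 to 0.92) and *Lama2* (0.77, 0.60 to 0.99) kept intervals under 1 there. Within the *Thbs4*-led cluster *Col4a1* was lower in callus (0.52, 0.40 to 0.67), while *Lamb1* (4.26, 2.13 to 9.68), *Lamc1* (1.81, 1.19 to 2.84) and *Nid1* (1.36, 1.07 to 1.76) were higher. The intact *Lamb1* level there rested on 9 UMIs in 5 cells. *Col18a1*, for which no ratio was formed, had 0 UMIs in these 16 intact cells and 23 UMIs in the 28 callus cells. The lower *Col4a1* and *Col15a1* of the whole gate were not seen within its *Cxcl14*-led cluster, which held 13 callus cells. *Col4a1* was lower within its *Thbs4*-led cluster. The part of the gate's makeup in the ratios was not tested.

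**Figure D4:**
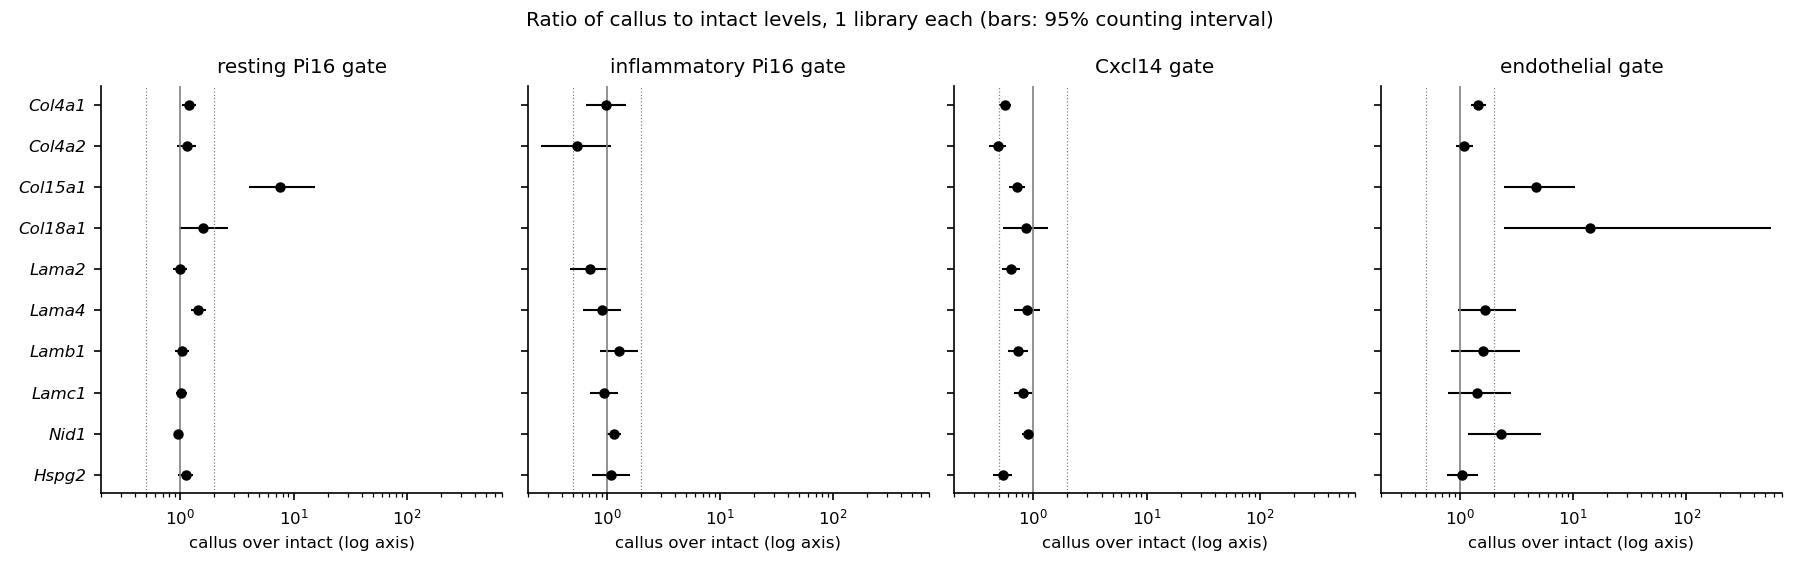
Ratio of callus to intact CPM for each member with at least 20 UMIs over both libraries, by gate, on a logarithmic axis, with exact 95% counting intervals; the solid line is 1 and the dotted lines are 0.5 and 2. *Col15a1* lies past 2 in resting Pi16 (7.57) and endothelial cells (4.74), and the members of the Cxcl14 gate lie between 0.48 and 0.89.

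**Figure D5:**
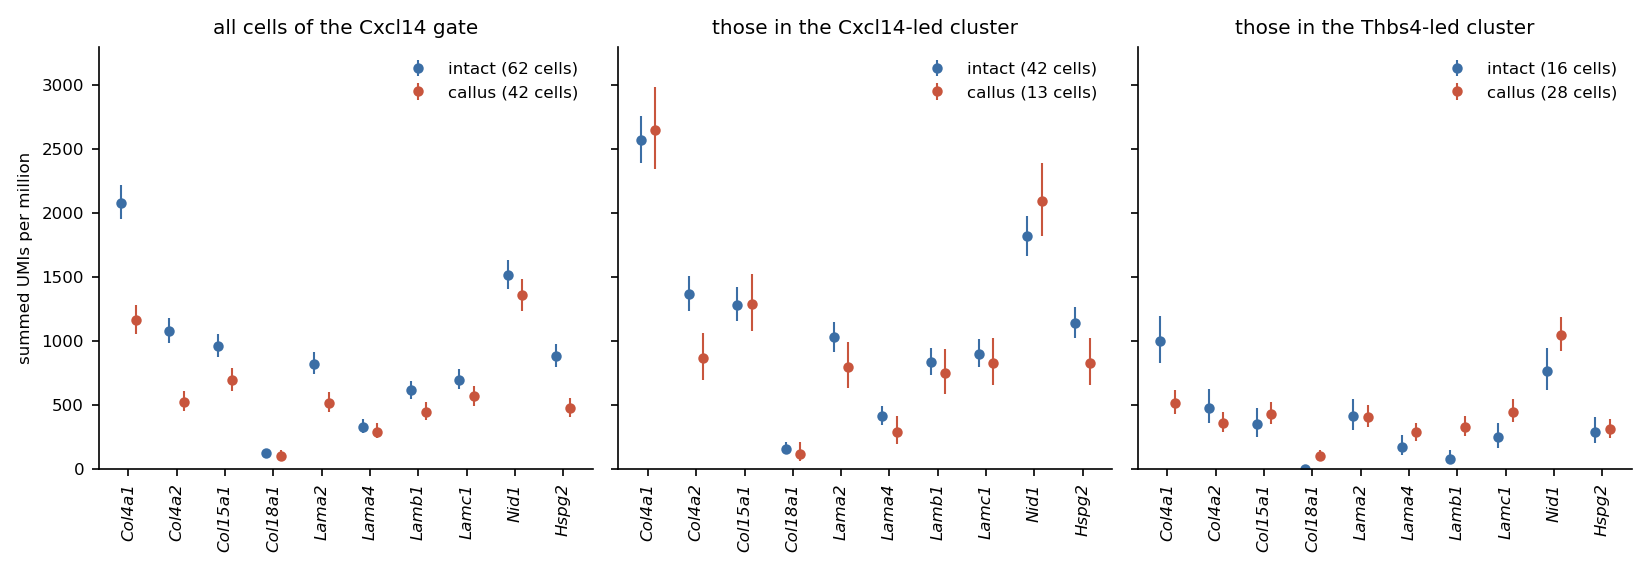
CPM of each member in all cells of the Cxcl14 gate (left), in those of the *Cxcl14*-led cluster (middle) and in those of the *Thbs4*-led cluster (right), with blue for intact, red for callus and bars for the exact Poisson 95% interval. The gap in *Col4a1* between libraries in the left panel (2082 and 1164 CPM) is not there in the middle panel (2574 and 2653 CPM). In the right panel *Col4a1* is at 998 CPM in intact and 517 CPM in callus cells.

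Other basement membrane genes were counted in 5 lists. For comparison, 15.1% of all tested genes were higher and 20.2% lower in endothelial cells than in resting Pi16 fibroblasts. In the Cxcl14 gate these shares were 4.36% and 4.57%, and in inflammatory Pi16 fibroblasts 0.828% and 0.0552%. With few genes tested per list, the counts are descriptions and not a result about a list. Of the other laminin and type IV collagen chains, 4 of 11 could be tested, and in endothelial cells 1 was higher and 2 were lower than in resting Pi16 fibroblasts. *Lama5* was higher, at 148 and 81.6 CPM against 0.77 and 0 CPM. *Lamb2* was lower (-0.88 ± 0.28), and *Col4a5* had 0 UMIs in endothelial cells against 77.5 and 46.4 CPM. In the Cxcl14 gate 1 was higher, *Col4a5* (0.99 ± 0.27, adjusted p = 0.023, edgeR), and 0 were lower.

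Of the other basement membrane components, 7 of 14 were tested, with 3 higher and 3 lower in endothelial cells and 3 higher and 1 lower in the Cxcl14 gate. *Tinagl1* was at 282 and 251 CPM in endothelial cells and 0 and 6.33 CPM in resting Pi16 cells. *Agrn*, for the proteoglycan agrin, was 2.67 ± 0.67 higher in endothelial cells, at 29.6 and 68.3 CPM against 9.21 and 5.28 CPM. Its intact endothelial level was under the limit of 44.5 CPM set by 3 counts. *Ntn4* was lower in endothelial cells, at 0 and 2.20 CPM against 160 and 139 CPM, and *Fbln1* had 0 UMIs there against 91.3 and 146 CPM. In the Cxcl14 gate *Nid2*, the second nidogen, was higher by 2.56 ± 0.36 (adjusted p = 2.6e-05, edgeR), while *Nid1* was not.

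All 10 enzymes and chaperones of collagen assembly were tested. In endothelial cells 2 were higher, *Plod1* (2.22 ± 0.34) and *Pxdn*, which crosslinks type IV collagen (1.62 ± 0.25). Another 6 were lower, among them *Loxl2* (0 and 6.61 CPM against 336 and 384 CPM), *P4ha2* (-2.48 ± 0.51) and *Plod2* (-1.68 ± 0.39). In the Cxcl14 gate 3 were higher, *Plod1* (1.82 ± 0.32), *P4ha2* (0.98 ± 0.27) and *P4ha1* (0.81 ± 0.24), and 0 were lower.

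Of 12 receptors 7 were tested. In endothelial cells 3 were higher and 3 lower: the laminin receptors *Itga6* (815 and 749 CPM) and *Bcam* (385 and 271 CPM) were each at most 8.44 CPM in resting Pi16 fibroblasts, while *Ddr2*, a collagen receptor, was lower, at 14.8 and 0 CPM against 598 and 653 CPM, and *Sdc4* had 0 UMIs against 144 and 147 CPM. In the Cxcl14 gate *Itga1* was higher (2.07 ± 0.45) and *Ddr2* lower (-1.24 ± 0.28). Of 10 proteases and inhibitors 8 were tested, with 1 higher and 5 lower in endothelial cells and 0 higher and 3 lower in the Cxcl14 gate. *Timp4* was at 1704 and 577 CPM in endothelial cells, *Mmp2* had 0 UMIs there against 661 and 1039.7 CPM, and *Timp2*, *Adamts5* and *Timp3* were lower in the Cxcl14 gate (-1.45 ± 0.28, -1.36 ± 0.28 and -1.22 ± 0.25). In inflammatory Pi16 fibroblasts 1 gene of the 5 lists passed, *Adamts1*, higher by 1.55 ± 0.26 (adjusted p = 0.0018, edgeR).

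Across 24 sums of gate and library, blood cells included, the genes outside the list with the most alike levels were *Ehd2* for *Col4a1* (Pearson r = 0.96 of log2 CPM with 10 added), *Fzd4* for *Col4a2* (0.95), *Gask1b* for *Col15a1* (0.91), *Il17rd* for *Col18a1* (0.92), *Tnxb* for *Lama2* (0.99), *Plpp3* for both *Lama4* and *Lamb1* (0.98 and 0.97), *Ddah2* for *Lamc1* (0.97), *Casp12* for *Nid1* (0.98) and *Tshz2* for *Hspg2* (0.98). These were the highest of 11882 genes compared, and the sums share 2 libraries and the contrast of stroma with blood.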

How the data were processed

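Single-cell RNA-seq of tdTomato-sorted mouse cells was analysed from raw UMI counts, deposited by the authors per gene and barcode as Cell Ranger (version 6.0.0, per the file headers; build mm10, per the labels) wrote them. The members, gene lists, gates and alternatives were chosen with earlier results of these data known. All 10 members were named, together with at most 4 genes per list and comparison with the largest differences that passed, and the 1 most alike gene for each member. *Pxdn* was named beyond this rule among the endothelial enzymes. Cells needed 500 genes and could hold up to 10% mitochondrial UMIs. A cell joined the marker list with the highest score if at least 3 markers had a UMI (2 for types). The 21 intact and 145 callus cells in which a second list scored at least 50% of the first were set aside as mixed, and no doublet caller was run. UMIs were summed per gate and library. Sums of the 4 gates with at least 10 cells in both libraries (8 sums, 3 residual degrees of freedom) were tested with edgeR 4.0.16 (quasi-likelihood, TMM, gate and library as terms) in R 4.3.3, with Benjamini-Hochberg adjustment at 0.05. Each SE was derived from the test, as the absolute log2 difference divided by the square root of its F statistic. The script was checked on simulated data. Levels have exact Poisson and shares exact Clopper-Pearson 95% intervals, for counting error only. Alternatives used DESeq2 1.42.0, RLE scaling, other filters and gates, and Leiden clusters (scanpy 1.11.5). Positions are from GENCODE vM21 (GRCm38). The tdTomato transcript was not analysed here.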

Additional observations from a re-analysis of the deposited data

Results flagged for a closer look

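*Col4a1* and *Col15a1* had counting intervals on opposite sides of 1 in different cell types. The callus to intact ratio of *Col4a1* was 0.56 in the Cxcl14 gate, 1.19 in the resting Pi16 gate and 1.45 in the endothelial gate. That of *Col15a1* was 0.72 in the Cxcl14 gate, 7.57 in the resting Pi16 gate and 4.74 in the endothelial gate. With 1 library per condition the differences between cell types were not tested. The same rule was not applied to all genes, so it does not set these members apart from other genes. Within the *Cxcl14*-led cluster of the Cxcl14 gate the ratios were 1.03 for *Col4a1* and 1.00 for *Col15a1*. Within its *Thbs4*-led cluster they were 0.52 (0.40 to 0.67) and 1.22 (0.84 to 1.80).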

How the results depend on the processing

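In the Cxcl14 gate the 6 members called against resting Pi16 fibroblasts became 3 with DESeq2, 3 with no library term and 2 with Leiden clusters, and the cause was not tested. The Leiden cluster led by *Thbs4* was named Cxcl14 by its most frequent gate. Leaving that cluster's cells out, an alternative added after the data were seen, gave 7 members, with *Lamb1* added. From the intact library alone, *Col18a1* was lower in endothelial cells than in resting Pi16 fibroblasts (-0.73 on the log2 scale, 1 UMI), and from the callus library alone it was 2.41 higher. The 9 members called in endothelial cells were 7 to 9 under the alternatives, and the inflammatory count stayed at 0 wherever it could be fitted, which with Leiden clusters it could not. Of members at least 2-fold higher in callus, 2 to 4 were counted in endothelial cells and 1, *Col15a1*, in resting Pi16 fibroblasts. The Thbs4 gate, with 4 intact cells, could not be tested. No paired analysis was possible because each condition has 1 library, while cell types were compared within libraries by the library term. The intact endothelial gate, with 27 cells, limits every endothelial value.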
